A study of Rattus norvegicus with 6 samples.

Results

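The extracellular proteases described here are the matrix metalloproteinases (MMPs), the ADAM and ADAMTS metalloproteases and the tissue inhibitors of metalloproteinases (TIMPs). They were chosen with earlier results of these data known. Members were all genes whose symbol is Mmp, Adam or Timp followed by a digit, or begins with Adamts. This gave 62 genes of the 17093 in the deposited tables: 20 MMP, 17 ADAM, 21 ADAMTS or ADAMTS-like and 4 TIMP genes. RNA was measured in primary rat nucleus pulposus cells, taken from the soft centre of the intervertebral disc of male animals, grown in DMEM-F12 medium and used at passages 3 to 6. In 3 libraries the cells had been kept without fetal bovine serum for 48 h, and 3 control libraries came from cells kept in medium with 10% serum. Strain and age are not given in the sources used here. Nor do the labels state that the libraries of a group stem from different animals or dishes, so every p-value reflects the spread among these 6 libraries, and that spread may be technical.

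MMPs, ADAMs and ADAMTS proteins are zinc-dependent proteases made as inactive precursors, and most become active once a propeptide is removed. MMPs cleave collagens, gelatin, fibronectin and many other matrix proteins, ADAMTS proteases cut proteoglycans such as aggrecan and versican or trim procollagens, and membrane-anchored ADAMs release the outer parts of surface proteins. TIMPs bind the active sites of these enzymes. In the disc, loss of aggrecan to ADAMTS and MMP activity is a hallmark of degeneration, which is why these genes are often measured in nucleus pulposus cells. RNA levels say nothing of how much enzyme was active.

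Each library gave 1 value per gene, read here as FPKM, that is, fragments divided by the length of the transcript and by the library's total, a scale on which levels of different genes can be set side by side. Library values summed to between 447788 and 530095, between 11153 and 11254 genes per library reached 1, and the depth in reads is unknown. Of 17 nucleus pulposus marker symbols, 13 were matched, and their summed value was 135 to 143 in serum-starved and 271 to 316 in control libraries. Among the symbols without a match, T and Tbxt name the same gene. Of the 13, 9 were tested, 6 fell and 2 rose, so the sum hides opposite changes. Slc2a1 (mean 30.7 in serum-starved against 142 in control cells) and Acan, described below, carried most of the lower sum, Foxf1 fell as well (21.8 against 33.3), and Pax1 (51.2 against 27.5) and Car3 (26.2 against 1.03) rose. Krt18 was listed at 0 in every library, Col2a1 reached at most 0.06, and Krt8 was between 1.13 and 3.71. The 8 matched annulus or fibroblast markers summed to 3511 to 3667 in serum-starved and 2790 to 3171 in control libraries, with none below 1 in all libraries. Col1a1 made up most of that sum (mean 2697 against 1799), 5 of the 8 rose, and Thy1 fell (297 against 920.5). The 5 smooth muscle or pericyte markers summed to 59.3 to 64.6 and 223 to 265, with 1 of 5 (Rgs5) below 1 throughout. Des (12.9 against 125.4) and Cspg4 (37.5 against 108) fell, Myh11 rose (1.82 against 1.09) and Cnn1 did not pass. The 5 matched macrophage markers summed to 10.7 to 14.3 and 23.5 to 29.9, with 3 of 5 below 1 throughout. Among them Cd14 was lower (8.54 against 24.8) and Cd68 higher (3.38 against 1.96). The 4 matched endothelial markers summed to at most 1.19 and the 2 matched neutrophil markers to at most 0.02, and of the mast cell markers only Kit was matched, listed at 0. Of 2 matched osteoclast markers, Acp5 fell and Oscar was below 1 throughout, and they summed to 2.99 to 4.93 in serum-starved and 7.08 to 10.1 in control libraries. The part of these shifts in the results below was not tested, and in such bulk samples fewer cells of a type and less RNA per cell cannot be told apart.

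Of the 62 genes, 25 stayed below 1 in all 6 libraries, and 27 did not reach the filter of at least 1 in at least 3 libraries. The 35 that did were tested with limma on log2(value + 1) beside all other genes, and "rose" and "fell" are used below for genes higher or lower in serum-starved cells whose Benjamini-Hochberg adjusted p did not exceed 0.05. Of these 35, 15 rose, 8 fell and 12 did not pass. That is 65.7% called, against 61.1% of all 11493 tested genes (31.7% rose and 29.4% fell), a share near the background. The groups did not overlap for 23 of the 35, or 65.7%, against 68.2% of all tested genes. Adam22 reached the filter through the serum-starved libraries alone and Adamts14 through the controls alone. The median log2 fold change, serum-starved minus control, was 0.20 over the 35 and 0.03 over all tested genes. With every library scaled to the same sum, which moved the median of all genes to 0.20, 21 of the 35 rose and 6 fell, and of all genes 5303 rose and 2327 fell against 3640 and 3384 on the deposited scale.

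**Figure D1:**
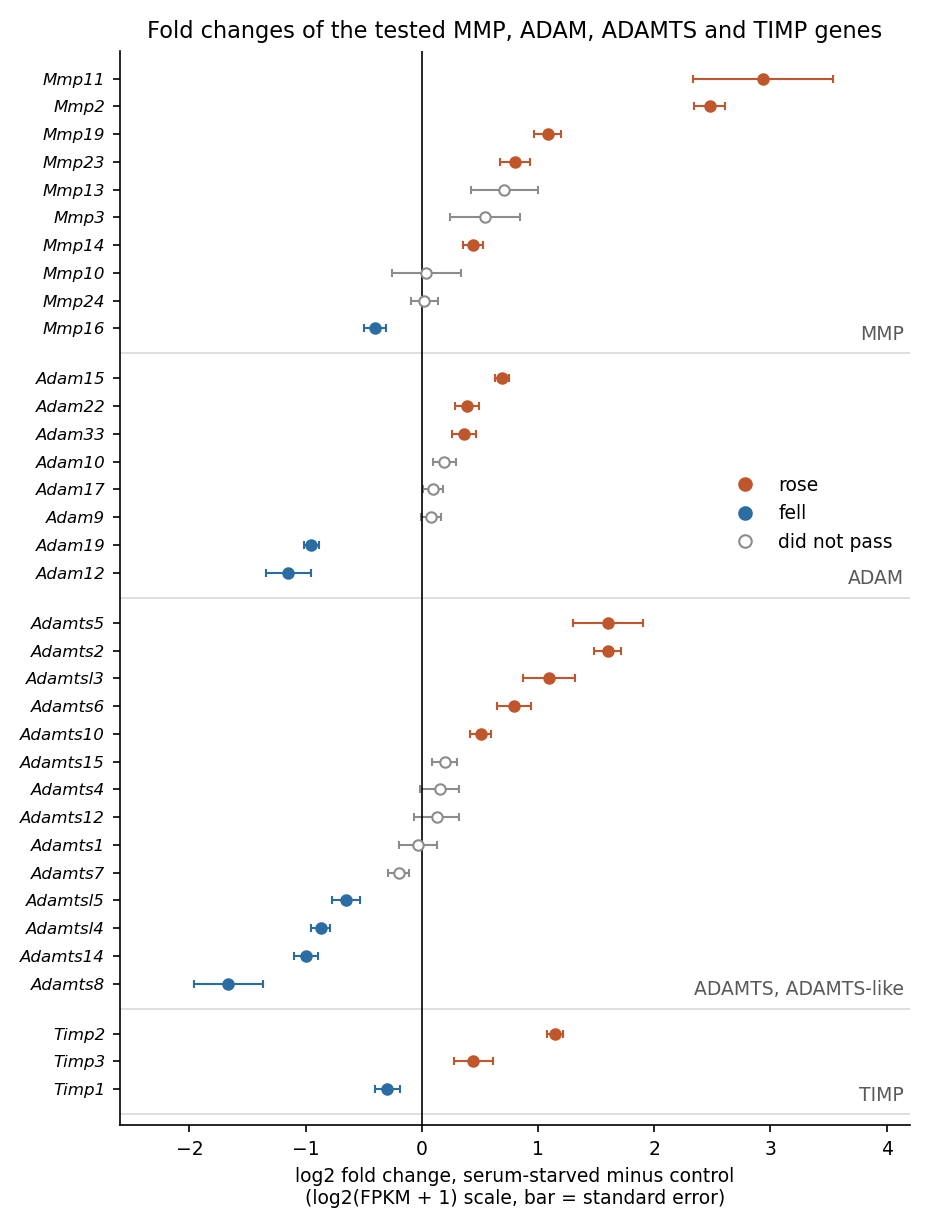
Log2 fold changes of the 35 tested genes on the log2(FPKM + 1) scale (horizontal axis, serum-starved minus control), with standard errors as bars, grouped by family and ordered by size. Filled points passed the test. Mmp11 and Mmp2 lie farthest to the right at 2.94 and 2.48, and Adamts8 farthest to the left at -1.67.

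The stromelysin Mmp3 (gene ID 171045), which cleaves proteoglycans and fibronectin and activates other MMPs, was the most abundant of the 62 genes. By mean FPKM it ranked 10th of 17093 genes in serum-starved and 26th in control cells. It was measured at 3332, 1502 and 3134 FPKM in serum-starved replicates 1, 2 and 3 and at 1945, 1290.3 and 2008 in the controls. The groups overlapped, because serum-starved replicate 2 lay below control replicates 1 and 3, and Mmp3 did not pass (log2 fold change 0.55 ± 0.30 SE, limma, Benjamini-Hochberg adjusted p = 0.147). Mmp10 (gene ID 117061), the second stromelysin, was at 386, 176 and 354 in serum-starved and 332, 209 and 321 in control libraries. Its log2 fold change was 0.04 ± 0.30 (SE), the groups overlapped, and it did not pass. Mmp13 (gene ID 171052), a collagenase that cuts type II collagen, was at 204, 92.2 and 131 against 96.2, 58.2 and 99.1, with a log2 fold change of 0.71 ± 0.29 (SE) and a limma Benjamini-Hochberg adjusted p of 0.0618.

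All 3 genes were lowest in the library numbered 2 of each group. Without serum-starved replicate 2, Mmp3 rose (log2 fold change 0.91, limma Benjamini-Hochberg adjusted p = 0.00509) and so did Mmp13 (0.99, adjusted p = 0.0159), while Mmp10 did not pass (0.39, adjusted p = 0.119). Leaving out serum-starved replicate 1 or 3 or control replicate 2 gave Mmp10 a negative value, and with equal sums or quantile normalization Mmp3 and Mmp13 rose. Between the stromelysins, the Mmp3 to Mmp10 ratio was steadier than either level. The ratio was 8.63, 8.53 and 8.84 in serum-starved and 5.87, 6.19 and 6.25 in control libraries, so the groups did not overlap although the levels did. An exact two-sided permutation test gave p = 0.1, the smallest that 3 against 3 libraries allow, and 18 of the 29 summed levels and ratios compared reached it (Benjamini-Hochberg adjusted p = 0.161). The ratio was chosen after its values were seen. The Mmp3 to Mmp13 ratio overlapped between the groups, at 16.3, 16.3 and 23.9 against 20.2, 22.2 and 20.3.

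**Figure D2:**
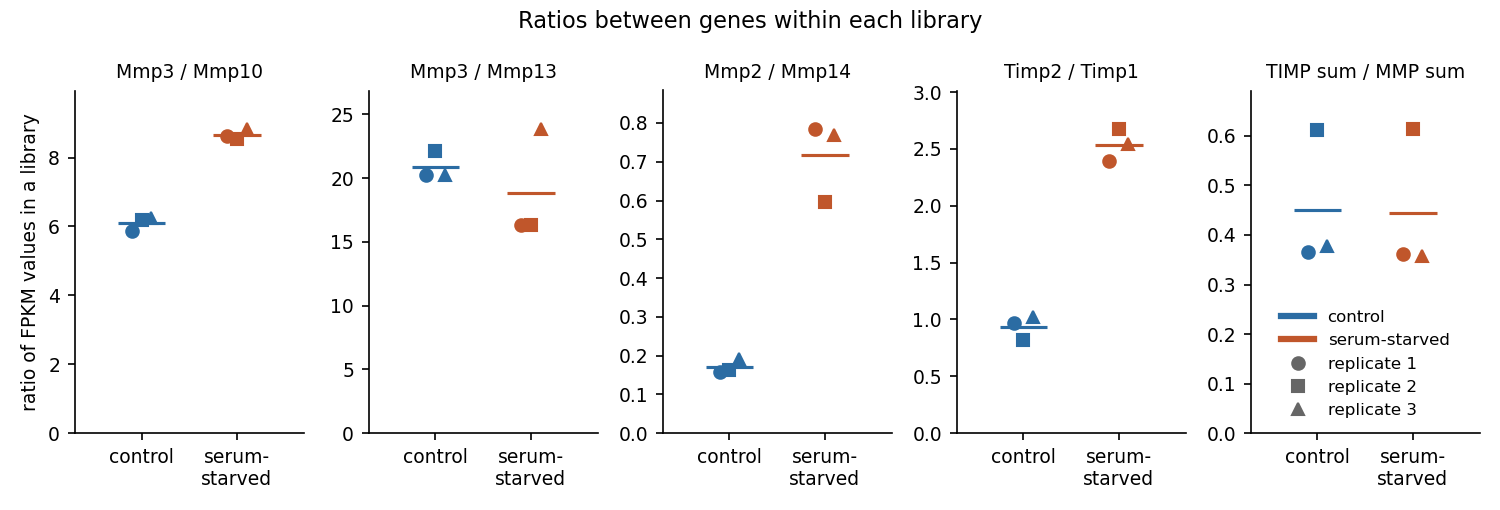
Ratios of FPKM values within each library (vertical axes, each from 0), by group, with 1 point per library, its shape marking the replicate number, and a line at the group mean. The Mmp3 to Mmp10, Mmp2 to Mmp14 and Timp2 to Timp1 ratios do not overlap between the groups, while the Mmp3 to Mmp13 ratio and the ratio of summed TIMP to summed MMP values do.

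Mmp13, Mmp3 and Mmp10 also share a place. In the RefSeq table of the GRCr8 rat assembly, used for names and gene order, they belong to a run of 10 MMP genes with no other protein-coding gene between them, of which 8 are in the files. The other 5 of those 8 (Mmp12, Mmp1b, Mmp1, Mmp8 and Mmp20) stayed below 1 in all libraries, with a highest value of 0.43. Below are the 250 bases before the RefSeq start site of the 3 expressed genes (GRCr8, plus strand, 5′ to 3′), shown because these neighbours had their lowest values in the same libraries. Capitals mark the AP-1 heptamer, the recognition sequence of Fos and Jun dimers, which reads TGACTCA on one strand and TGAGTCA on the other. The windows are chr8:12782579-12782828 for Mmp13, chr8:12925031-12925280 for Mmp3 and chr8:12974457-12974706 for Mmp10.
Mmp13: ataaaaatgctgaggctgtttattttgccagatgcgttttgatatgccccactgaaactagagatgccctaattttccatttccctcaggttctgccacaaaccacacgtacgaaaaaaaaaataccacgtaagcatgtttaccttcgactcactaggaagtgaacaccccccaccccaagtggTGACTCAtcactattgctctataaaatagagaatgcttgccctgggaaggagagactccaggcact
Mmp3: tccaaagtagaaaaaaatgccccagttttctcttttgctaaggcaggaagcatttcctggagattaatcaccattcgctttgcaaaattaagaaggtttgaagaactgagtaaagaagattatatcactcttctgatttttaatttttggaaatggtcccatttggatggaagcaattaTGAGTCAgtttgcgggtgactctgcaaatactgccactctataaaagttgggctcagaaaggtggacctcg
Mmp10: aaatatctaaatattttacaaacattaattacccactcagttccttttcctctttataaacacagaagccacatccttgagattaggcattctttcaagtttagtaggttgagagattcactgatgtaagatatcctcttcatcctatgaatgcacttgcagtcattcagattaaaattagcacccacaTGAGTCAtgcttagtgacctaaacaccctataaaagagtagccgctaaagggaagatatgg

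Each of the 3 windows held 1 match, which begins 66 bases before the start site of Mmp13, 71 before that of Mmp3 and 61 before that of Mmp10. Mmp3 and Mmp10 share the letters TGAGTCA, and Mmp13 has TGACTCA. Across all genes in RefSeq, 4.05% of 33469 such windows held the heptamer on either strand. Of the 62 genes, 46 had a window, and 6 of these held it: Mmp1, Mmp3, Mmp10, Mmp12 and Mmp13 from the run, and Adam19. Counted by window, that is 12.0% of 50. The wider TGANTCA, with any middle base, was in 14.0% of these 50 windows, from 7 of the 46 genes, and in 6.34% of all windows. The heptamer itself, TGACTCA or TGAGTCA, was held by 0 of the 10 genes with a window that rose and 1 of 6 that fell (Adam19). It was also in 3 of 10 that did not pass and 2 of 20 that were not tested. A match of letters is a description of the sequence and does not show a working site.

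Mmp2 (gene ID 81686), or gelatinase A, which digests denatured collagen and basement membrane, was the clearest riser. It was at 211, 181 and 250.4 FPKM in serum-starved libraries and at 35.4, 33.4 and 43.7 in controls. Every serum-starved value was above every control value, and the mean was 5.71-fold higher (log2 fold change 2.48 ± 0.13 SE, limma, Benjamini-Hochberg adjusted p = 2.1e-06). By mean FPKM Mmp2 moved from the 13th to the 7th most abundant of the 62 genes. The other gelatinase gene, Mmp9, reached at most 0.35 in any library. Mmp14 (gene ID 81707), or MT1-MMP, a membrane-bound collagenase that activates the Mmp2 precursor together with TIMP-2, was at 268, 303 and 325 against 223, 206 and 229. It rose as well, 1.36-fold and without overlap (log2 fold change 0.44 ± 0.09 SE). The Mmp2 to Mmp14 ratio was 0.786, 0.596 and 0.770 in serum-starved and 0.159, 0.163 and 0.191 in control libraries, without overlap (exact two-sided permutation p = 0.1).

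Of the 7 membrane-bound MMP genes, 4 were tested. Besides Mmp14, Mmp23 (gene ID 94339), which encodes an MMP held in the membrane by its N-terminal part, was at 83.7, 76.7 and 78.7 against 37.6, 44.3 and 56.1 and rose 1.73-fold. Mmp16, or MT3-MMP, was low, at 3.19, 3.68 and 3.91 against 5.37, 5.16 and 4.64, and fell 1.41-fold without overlap. With equal sums Mmp16 did not pass (log2 fold change -0.24, limma Benjamini-Hochberg adjusted p = 0.0649). Mmp24 did not pass and its groups overlapped, at 1.41 ± 0.200 against 1.37 ± 0.220 (SD, n = 3 each). Mmp15, Mmp17 and Mmp25 stayed below 1 in all libraries, at most 0.73, 0.95 and 0.59.

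The 2 other secreted MMPs that were tested both rose, against 31.7% of all tested genes. Mmp19 (gene ID 304608), a protease of basement membrane proteins, was at 183, 156 and 193 FPKM in serum-starved and 73.3, 80.1 and 96.2 in control libraries, 2.13-fold higher (log2 fold change 1.09 ± 0.12 SE). Mmp11 (gene ID 25481), or stromelysin-3, which is activated inside the cell by furin and is known from stromal fibroblasts, had the largest log2 fold change of the 35. Its values were 28.4, 23.1 and 25.1 against 0.15, 3.07 and 7.78. The groups did not overlap, but the 3 controls spread widely, so that the fold depends on them. The log2 fold change was 2.94 ± 0.60 (SE, limma, Benjamini-Hochberg adjusted p = 0.00306), 2.14 without control replicate 1, 3.61 without control replicate 3 and 3.79 with the pseudocount at 0.1, and it passed in each case. Mmp12 and Mmp28 stayed below 1, at most 0.37 and 0.32.

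**Figure D3:**
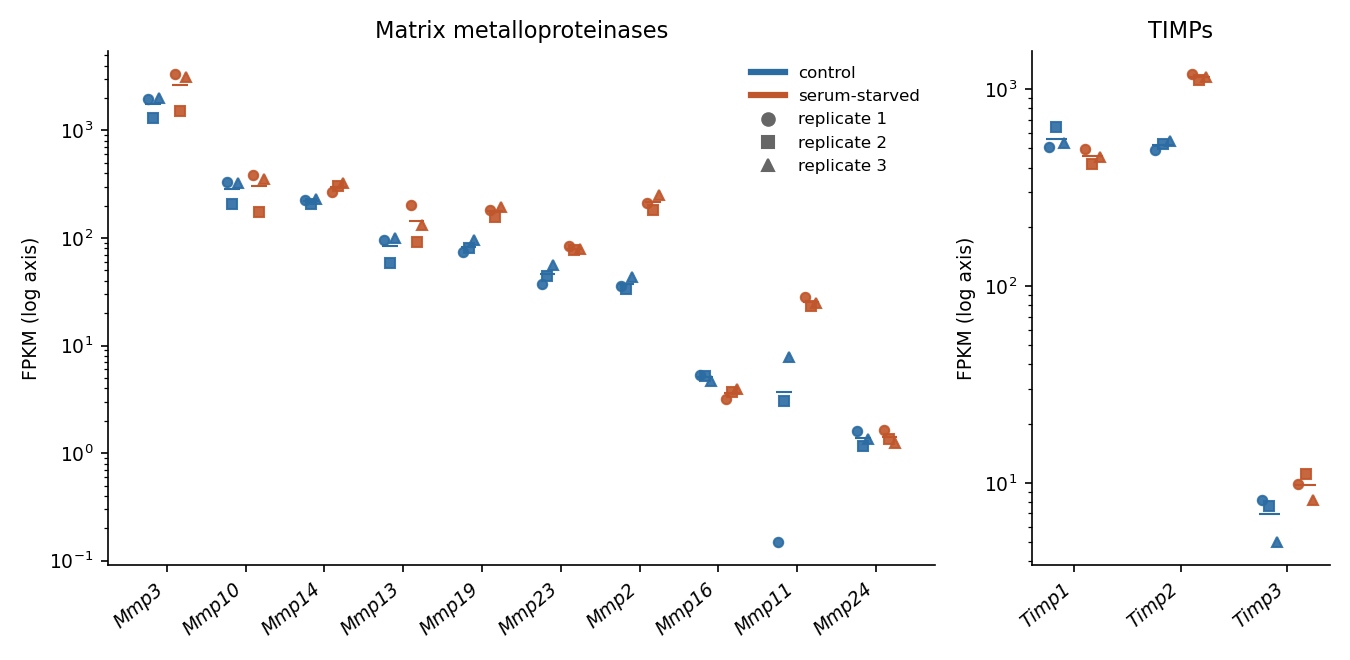
FPKM of the 10 tested MMP and 3 tested TIMP genes in each library (vertical axes logarithmic), with marker shape for the replicate number and a line at each group mean. Mmp2, Mmp19, Mmp23, Mmp14, Mmp11 and Timp2 are higher in all serum-starved libraries, whereas Mmp3, Mmp10 and Mmp13 overlap and are lowest in replicate 2 of each group.

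Among the inhibitors, Timp2 (gene ID 29543), which blocks MMPs and also takes part in Mmp2 activation on the cell surface, was at 1193, 1119 and 1147 FPKM in serum-starved and 491, 529 and 544 in control libraries. It rose 2.21-fold with little spread in either group (log2 fold change 1.14 ± 0.07 SE, limma, Benjamini-Hochberg adjusted p = 4.14e-06). Timp1 (gene ID 116510), a soluble inhibitor of most MMPs, was at 497, 418 and 452 against 507, 645 and 532. It fell 1.23-fold without overlap on the deposited scale, although after quantile normalization its log2 fold change was 0.03. That call was weak (limma, Benjamini-Hochberg adjusted p = 0.039, between 0.0267 and 0.788 over the alternatives). Timp1 did not pass when serum-starved replicate 2, serum-starved replicate 3 or control replicate 2 was left out, nor with no filter or with equal sums. Timp3 (gene ID 25358), which binds to the matrix and also inhibits ADAM17 and the aggrecanases, was far lower, at 9.87, 11.1 and 8.17 against 8.23, 7.63 and 5.02. Serum-starved replicate 3 lay just below control replicate 1. Timp3 passed narrowly (log2 fold change 0.44 ± 0.17 SE, limma, Benjamini-Hochberg adjusted p = 0.0491, between 0.00885 and 0.151 over the alternatives). It did not pass when serum-starved replicate 1 or 2 was left out, or control replicate 2 or 3, with the pseudocount at 0.1, with no filter, or after median-ratio or quantile normalization. Timp4 reached at most 0.15.

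In controls Timp1 and Timp2 were nearly equal, and in serum-starved cells Timp2 led. The Timp2 to Timp1 ratio was 2.40, 2.68 and 2.54 in serum-starved and 0.969, 0.821 and 1.02 in control libraries, without overlap (exact two-sided permutation p = 0.1). Timp2 held 71.3% ± 1.07 of the summed TIMP value in serum-starved and 48.0% ± 2.86 in control libraries (SD, n = 3 each). Summed TIMP values were 1700.0, 1548 and 1606 against 1007, 1181 and 1081. Summed MMP values were 4703, 2518 and 4499 against 2752, 1932 and 2870, and Mmp3 alone made up 66.7% ± 6.14 and 69.2% ± 2.07 of them (SD, n = 3 each). The ratio of the sums followed Mmp3: it was 0.361, 0.615 and 0.357 in serum-starved and 0.366, 0.612 and 0.377 in control libraries, where the groups overlapped and the high value in each group was again replicate 2. Leaving out Mmp3, the summed MMP values were 1371, 1015 and 1365 against 807, 642 and 862, without overlap.

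The ADAMTS proteoglycanases cut aggrecan and versican. Of 5 tested, Adamts5 rose, Adamts8 fell and 3 did not pass (40% called, against 61.1% of all tested genes). Adamts5 (gene ID 304135), a main aggrecanase of cartilage, was at 26.9, 65.8 and 38.6 FPKM in serum-starved and 10.9, 10.9 and 17.7 in control libraries. It was 3.33-fold higher on the means and did not overlap (log2 fold change 1.60 ± 0.30 SE, limma, Benjamini-Hochberg adjusted p = 0.00198). Its highest value came from serum-starved replicate 2, the library with the lowest Mmp3, Mmp10 and Mmp13 of its group, and without that library the log2 fold change was 1.26 and passed. Adamts4, the other well-known aggrecanase gene, was at 1.10 ± 0.187 and 0.913 ± 0.452 (SD, n = 3 each), overlapped and did not pass. Adamts8 (gene ID 300475) was at 3.80, 1.30 and 1.90 against 13.0, 8.82 and 6.42 and fell 4.04-fold (log2 fold change -1.67 ± 0.30 SE), the largest fall of the 35 on the log2 scale.

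Adamts1 (gene ID 79252), which cleaves versican and aggrecan, was the most abundant of its family in every library, with 61.5% ± 2.03 and 63.7% ± 4.64 of the summed ADAMTS value (SD, n = 3 each). Its levels were 314, 378 and 284 in serum-starved and 287, 292 and 427 in control libraries, which overlapped, and it did not pass. Its log2 fold change was -0.03 ± 0.16 (SE), and the sign turned with equal sums, with quantile normalization, without serum-starved replicate 3 and without control replicate 3. Adamts15 was at 6.10, 5.96 and 6.67 against 5.78, 5.80 and 4.46, without overlap, but did not pass (log2 fold change 0.20 ± 0.11 SE). With equal sums, where the median of all tested genes was also 0.20, Adamts15 rose (0.36, limma Benjamini-Hochberg adjusted p = 0.0159). Neighbours in the GRCr8 gene order had different calls: Adamts5 rose and the adjacent Adamts1 did not pass, and Adamts8 fell and the adjacent Adamts15 did not pass. Adamts9 reached 1 only in serum-starved replicate 2 and was not tested, at 0.68, 1.22 and 0.83 against 0.16, 0.23 and 0.20, and Adamts20 reached at most 0.05.

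The procollagen N-proteinases remove the N-terminal propeptide of fibrillar procollagens. Adamts2 rose and Adamts14 fell, but Adamts14 reached the filter through the controls alone. Adamts2 (gene ID 287899) was at 11.7, 11.8 and 11.4 FPKM in serum-starved and 2.65, 2.99 and 4.01 in control libraries and rose 3.63-fold (log2 fold change 1.60 ± 0.12 SE, limma, Benjamini-Hochberg adjusted p = 1.12e-05). Adamts14 fell 3.78-fold, at 0.52, 0.44 and 0.70 against 2.01, 2.13 and 2.14, and was below 1 in all serum-starved libraries. Adamts3, the other member of that group, reached at most 0.03. Their summed value was 12.2 ± 0.0520 in serum-starved and 5.32 ± 0.774 in control libraries (SD, n = 3 each).

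Adamts6 and Adamts10, a related pair linked to fibrillin microfibrils, both rose, against 31.7% of all tested genes. Adamts6 was at 41.3, 31.6 and 33.4 against 23.1, 21.4 and 15.8, 1.76-fold higher and without overlap. Adamts10 was at 17.3, 16.8 and 19.9 against 11.8, 11.6 and 13.7, 1.46-fold higher and without overlap. Adamts7 and Adamts12, which cleave cartilage oligomeric matrix protein, did not pass. Adamts7 was at 14.4, 13.7 and 16.0 against 17.0, 15.3 and 18.9 and overlapped (log2 fold change -0.20 ± 0.09 SE), and without control replicate 2 it fell (limma Benjamini-Hochberg adjusted p = 0.0467). Adamts12 was at 3.08 ± 0.448 and 2.82 ± 1.00 (SD, n = 3 each), and its log2 fold change of 0.13 was -0.09 without control replicate 3. Adamts16 and Adamts17 stayed below 1, at most 0.01 and 0.14.

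ADAMTS-like proteins lack the protease domain and sit in the matrix. Of 3 tested, 1 rose and 2 fell, where 61.1% of all tested genes were called. Adamtsl3 was at 12.1, 14.4 and 10.9 FPKM in serum-starved and 4.86, 8.18 and 3.62 in control libraries and rose 2.25-fold (log2 fold change 1.09 ± 0.23 SE). Adamtsl4 (gene ID 310670), whose protein binds fibrillin-1 microfibrils, was at 42.4, 46.8 and 41.7 against 75.0, 78.0 and 89.5 and fell 1.85-fold. Adamtsl5 was at 8.99, 7.28 and 9.13 against 15.7, 14.0 and 12.0 and fell 1.64-fold. None of the 3 overlapped between the groups, and 68.2% of all tested genes did not. The summed ADAMTS-like value was 65.0 ± 3.44 in serum-starved and 100.5 ± 4.71 in control libraries (SD, n = 3 each), and that of the whole ADAMTS family, led by Adamts1, was 528 ± 63.0 and 523 ± 83.4 and overlapped. Adamtsl1 and Adamtsl2 stayed below 1, at most 0.24 and 0.40.

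**Figure D4:**
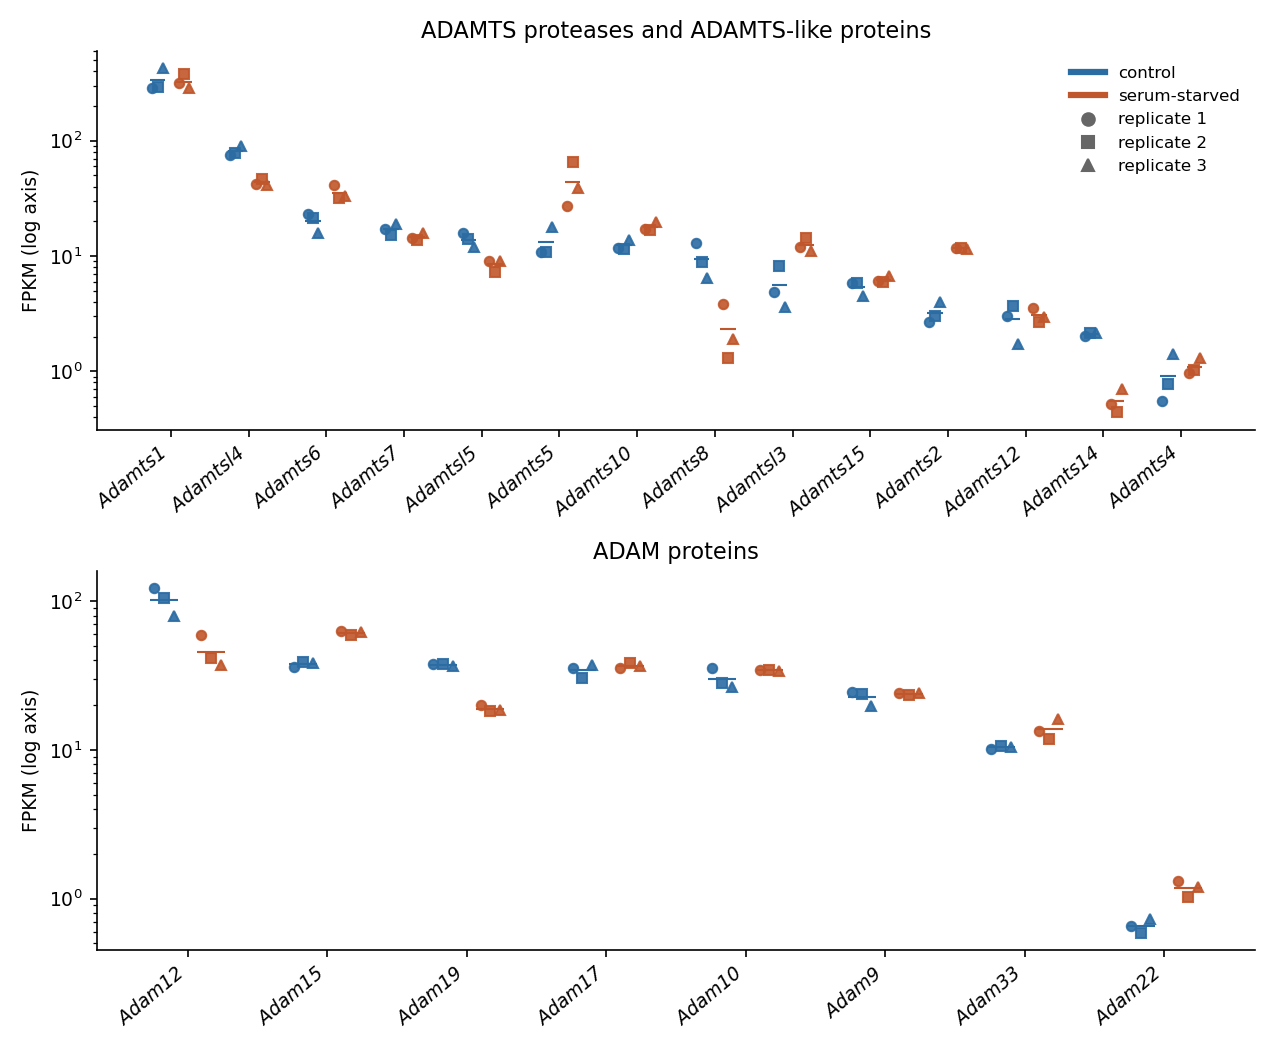
FPKM of the 14 tested ADAMTS and ADAMTS-like genes and the 8 tested ADAM genes in each library (vertical axes logarithmic), with marker shape for the replicate number and a line at each group mean. Adamts5, Adamts2 and Adam15 are higher and Adamts8, Adamts14, Adam12 and Adam19 lower in all serum-starved libraries, while Adamts1, Adam17, Adam10 and Adam9 overlap.

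Of the 8 ADAM genes counted as active sheddases, 7 were tested: 2 rose, 2 fell and 3 did not pass. That is 57.1% called, against 61.1% of all tested genes. The falls were in Adam12 and Adam19, which belong to one branch of the family and are known from muscle and skeletal precursors. Adam12 (gene ID 679837), the most abundant ADAM in controls, was at 59.2, 41.3 and 37.1 FPKM in serum-starved and 122, 106 and 79.7 in control libraries. It fell 2.24-fold (log2 fold change -1.15 ± 0.19 SE, limma, Benjamini-Hochberg adjusted p = 0.0011). Adam19 (gene ID 303068) was at 19.9, 18.4 and 18.5 against 37.6, 38.1 and 36.7 and fell 1.98-fold, with a narrow spread in both groups (log2 fold change -0.95 ± 0.06 SE). Adam15 (gene ID 57025), which carries an integrin-binding site, rose 1.63-fold, at 63.1, 59.0 and 62.3 against 35.9, 39.0 and 38.3. Adam33 was at 13.4, 11.8 and 16.1 against 10.1, 10.7 and 10.4 and rose 1.32-fold without overlap (limma, Benjamini-Hochberg adjusted p = 0.0161, between 0.00192 and 0.0481 over the alternatives).

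The general sheddases did not pass. Adam17, which releases TNF and ligands of the EGF receptor, was at 35.7, 38.5 and 36.6 against 35.9, 30.3 and 37.4, with a log2 fold change of 0.10 ± 0.09 (SE). Adam10, which cuts Notch receptors and cadherins, was at 34.4, 34.5 and 33.9 against 35.4, 28.1 and 26.7, with a log2 fold change of 0.19 ± 0.10 (SE). Adam10 rose without control replicate 1 (log2 fold change 0.31, limma Benjamini-Hochberg adjusted p = 0.0059), with equal sums and with quantile normalization. Adam9 was at 24.1, 23.3 and 24.2 against 24.6, 23.7 and 19.7, and its log2 fold change of 0.08 ± 0.09 (SE) was -0.02 without control replicate 3. With equal sums Adam9 (log2 fold change 0.26) and Adam17 (0.29) rose as well, on a scale where the median of all tested genes was 0.20. The summed ADAM value was 254, 230 and 232 in serum-starved and 303, 277 and 251 in control libraries, where serum-starved replicate 1 lay just above control replicate 3 (exact two-sided permutation p = 0.2). Adam8, a leukocyte-associated member, reached at most 0.25.

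Outside the sheddases, Adam22, a neural ADAM without protease activity, rose 1.79-fold near the filter, from 0.657 ± 0.0702 to 1.17 ± 0.146 (SD, n = 3 each). Adam11 and Adam23, of the same kind, reached at most 0.07 and 0.02. The 6 ADAM genes known from the reproductive tract were not tested. Adam1a was the highest of them, at 1.43, 0.96 and 1.20 in serum-starved and 0.57, 0.62 and 0.50 in control libraries. Adam32 was listed at 0 in every library, Adam5 and Adam30 reached at most 0.03 and 0.02, and Adam4 and Adam4l1 at most 0.21 and 0.58. Adam4 and Adam4l1 lie side by side and are near copies by name, as are Mmp1 and Mmp1b (at most 0.20 and 0.43), so the division of reads within each pair is uncertain.

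Genes that act on these enzymes or are cut by them were read from lists that share no gene with the 62. Those lists, too, were chosen with earlier results of these data known. Of all 11493 tested genes, 31.7% rose and 29.4% fell. Among 7 tested activators, inhibitors and membrane regulators, 57.1% were called, against 61.1% of all tested genes. Of the 7, 4 rose and 0 fell (median log2 fold change 0.35, against 0.03 for all tested genes). These were the proprotein convertases Pcsk6 (0.74), Pcsk5 (0.51) and Furin (0.35), which remove the propeptides of Mmp11, MT-MMPs and ADAM precursors, and Lrp1 (0.61), a receptor that takes up MMPs, ADAMTS5 and TIMPs. Reck, a membrane-anchored MMP inhibitor, did not pass, at 34.6, 40.3 and 38.1 FPKM against 35.9, 35.6 and 40.5. Of 6 tested ADAM10 and ADAM17 partners, 2 rose, 3 fell and 1 did not pass (83.3% called, against 61.1% of all tested genes). Tspan17 and Rhbdf1 rose (log2 fold changes 0.54 and 0.50), and Tspan5 (-0.41) and Rhbdf2 (-0.36) were among those that fell. Without control replicate 1 only 1 rose, and with equal sums 1 fell. In the plasmin system, whose protease plasmin can activate several MMP precursors, the activator genes Plau (log2 fold change -3.13) and Plat (-0.50) and the receptor gene Plaur (-1.55) fell. Plg, which encodes the plasmin precursor, was at most 0.07.

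All 3 tested genes of the astacin list rose, against 31.7% of all tested genes. Tll1 (log2 fold change 1.47) and Bmp1 (1.05) encode the proteases that remove the C-terminal propeptide of procollagens, and Pcolce (0.88) their enhancer. Bmp1 was at 41.1, 42.5 and 45.0 FPKM in serum-starved and 19.3, 21.6 and 19.8 in control libraries. Among cathepsins and cystatins, 8 of 9 tested genes rose and 0 fell (88.9% called, against 61.1% of all tested genes, median 1.15). The largest changes were in the cysteine protease genes Ctsh (2.23), Ctsf (1.65) and Ctsb (1.50) and in Cst3 (1.99), which encodes the inhibitor cystatin C. Cst3 thus moved the same way as these proteases, as did Timp2 with Mmp2 among the metalloproteinases. Cst6, the other tested cystatin gene, did not pass (0.24), nor did Reck. Timp1 fell and Timp3 rose, both weakly.

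Of 9 tested matrix substrate genes, 4 rose, 3 fell and 2 did not pass (77.8% called, against 61.1% of all tested genes). Both large proteoglycans that ADAMTS proteases cut fell. Acan (aggrecan) was at 3.27, 2.67 and 3.22 FPKM in serum-starved and 82.6, 103 and 47.2 in control libraries (log2 fold change -4.21 ± 0.24 SE), and Vcan (versican) at 18.1, 18.2 and 18.6 against 75.3, 57.0 and 66.5 (-1.79 ± 0.10 SE). Hapln1, which encodes the link protein that holds proteoglycans on hyaluronan, and Col3a1, a fibrillar collagen chain, rose by 0.73 and 0.84 on the log2 scale. Adamts5 RNA was thus 3.33-fold higher in the cells in which the RNA of its substrate aggrecan was 25.4-fold lower. The other tested proteoglycanase genes did not share that rise. The more abundant Adamts1 did not pass (mean 325 against 336), nor did Adamts4 and Adamts15, and Adamts8 fell. The summed proteoglycanase value, Adamts5 included, was 379.6 ± 64.55 in serum-starved and 364.7 ± 80.55 in control libraries (SD, n = 3 each) and overlapped. Among 18 tested genes of shed membrane proteins, 10 fell, 5 rose and 3 did not pass (median -0.41). Of these 18, 83.3% were called, against 61.1% of all tested genes. With the filter at 5, which tests fewer genes, 6 fell and 3 rose. Hbegf, an EGF receptor ligand released by ADAM proteases, had a log2 fold change of -1.97, and Btc, another such ligand, 2.15. Btc was at 5.02, 9.4 and 5.01 against 0.13, 0.76 and 1.18, and its controls did not meet the filter by themselves. L1cam and Mertk rose by 1.54 and 1.52, but both reached the filter through the serum-starved libraries alone, with controls of at most 0.33 and 0.26.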

How the data were processed

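RNA was depleted of ribosomal RNA and sequenced from random-primed cDNA, per the labels' protocols. The values the authors deposited are taken as FPKM, since they are not whole and their sums differ between libraries, although the file headers name no unit. If they were TPM, each library would differ by 1 common factor. The submitters' processing notes name bcl2fastq 2.0, HISAT2, StringTie, DESeq2 and limma, and the mouse build mm10, while the gene IDs are rat IDs, and all 62 genes matched the GRCr8 RefSeq table by ID and symbol. The build of the values is therefore uncertain, and coordinates are given only for RefSeq windows. Strand and multiply matching reads are not given in the sources used here.

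Genes that reached 1 in 3 or more libraries were fitted together on log2(value + 1) with limma 3.58.1 (R 4.3.3; intensity trend, treatment as the only term), with Benjamini-Hochberg adjustment over all 11493 tested genes and a threshold of 0.05. Folds are ratios of mean FPKM, whereas log2 fold changes understate changes of low genes. A single gene cannot reach an exact two-sided permutation p below 0.1 with 3 against 3. The fit was also run on simulated data with independent errors and far fewer changed genes than were called here. That simulation does not cover technical replicates.

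The 62 genes and the lists were chosen with earlier results of these data known. Every gene that passed is named, as are genes that did not pass with a group mean of at least 5, and up to 4 genes per related list, with Acan, Vcan, Furin, Reck and Bmp1 always. Genes of the 62 that were not tested are given by their highest value. 1 gene of the plasmin list, and that list's counts, are not reported here. Plg, the markers named singly and the ratios were added after their values were seen. Alternatives were another pseudocount, filter and scaling, a replicate block and leaving out each library. The filter alternatives test other genes, whereas fits without 1 library test the same ones.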

Additional observations from a re-analysis of the deposited data

How the results depend on the processing

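Of the 23 genes that rose or fell, 20 kept their call under each of the 13 alternatives in which they were tested; the exceptions were Timp1, Timp3 and Mmp16. After quantile normalization the log2 fold changes of Timp1, Adamts1 and Mmp24 were 0.0275, 0.13 and -0.0153, and with equal sums that of Adamts1 was 0.16, all of opposite sign to the deposited scale. The cause was not tested. Fewer tested genes account for 0 MMP genes that fell with the filter at 5, and more for 3 MMP genes that fell and 5 ADAM genes that rose with no filter. With equal sums 0 MMP and 0 TIMP genes fell and 6 ADAM genes rose. 1 TIMP gene rose with the pseudocount at 0.1, with no filter and after median-ratio or quantile normalization, and 0 fell with no filter, after quantile normalization and with the replicate block. Leaving out 1 library at a time, 1 to 2 TIMP genes rose and 0 to 1 fell. Log2 fold changes then ranged from -0.016 to 0.139 for Adam9, -0.0947 to 0.30 for Adamts12, -0.14 to 0.16 for Adamts1, -0.0429 to 0.0909 for Mmp24 and -0.18 to 0.39 for Mmp10.

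The labels do not say whether the numbers in the titles pair the samples. Deviations of same-numbered libraries correlated at 0.037, -0.162 and 0.101 over all tested genes. Only for number 3 was the same-numbered library of the other group the best match. The highest correlation, 0.164, was between serum-starved replicate 1 and control replicate 2. With 3 libraries per group, these correlations cannot decide whether equal numbers mark a shared animal or batch. Mmp3, Mmp10 and Mmp13 were lowest in replicate 2 of both groups. With the replicate block 17 of the 35 genes rose and 8 fell, with Mmp3 and Mmp13 among those that rose and with Adamts7 but not Timp1 among those that fell, and over all genes 3508 rose and 3293 fell. Depth is unknown, so the counting error of low values cannot be given.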
